A study of Homo sapiens with 12 samples.

Results

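Nuclear genes that encode subunits of the 5 oxidative phosphorylation complexes were followed in SH-SY5Y cells, a human neuroblastoma line of sympathoadrenal origin, after knockdown of MATR3. MATR3 (Matrin3) encodes a protein of the nuclear matrix with RNA-binding and zinc finger domains. Members were chosen by gene symbol: the NDUFA, NDUFB, NDUFC, NDUFS and NDUFV genes of complex I, SDHA to SDHD of complex II, the UQCR genes and CYC1 of complex III, the COX4 to COX8 families of complex IV and the ATP5 genes of complex V. Assembly factors and pseudogenes were left out, and the brightest transcript cluster stood for a gene with more than 1. The rule found 78 genes of the 22411 with a transcript cluster of 1 symbol, and it used no measured difference. There were 32 genes of complex I (5 core and 27 accessory), 3 of complex II, 8 of complex III, 17 of complex IV and 18 of complex V. The genes NDUFA4 and NDUFA4L2 now carry the names COXFA4 and COXFA4L2 and were counted in complex IV. SDHB and UQCRFS1 were not analysed here, and neither were the 13 subunits that mitochondrial DNA encodes.

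Cells kept in medium with 15% serum took up either the siRNA that targets MATR3 or a negative control siRNA by electroporation at 1100 V (pulse width 50 ms), so both groups carry the effects of the pulse. RNA was collected 48 h later, and 100 ng per sample went onto Affymetrix Human Transcriptome Array 2.0 arrays, 3 samples per group. No untreated sample was analysed here. Nothing in the labels says that the replicates were separate cultures, and the p-values given here therefore reflect the spread among these samples alone, part or all of which may be technical. In RNA of a whole culture, fewer cells of a type and less RNA per cell cannot be told apart.

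Complexes I to IV form the respiratory chain of the inner mitochondrial membrane. Complexes I and II pass electrons from NADH and succinate to ubiquinone, complex III passes them on to cytochrome c, and complex IV reduces oxygen. Complexes I, III and IV pump protons, and complex V, the ATP synthase, uses the gradient to make ATP. Most subunits are encoded in the nucleus, and factors such as NRF1, GABP (of the ETS family) and YY1 are known to bind promoters of many of these genes. Neurons depend heavily on this pathway, while many tumour lines also draw ATP from glycolysis.

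The promoters of NDUFB11 and COX6A1 are shown because these were the members that passed a test in at least 1 of the planned models with a block. Both come from RefSeq on GRCh38.p14 and run from 250 bases before to 50 bases from the gene start. Capitals mark matches to 3 motifs searched on both strands, GCATGCG from the centre of the NRF1 motif, CCGGAAG for ETS factors and ATGGCGG for YY1. GCATGCG overlaps itself on the other strand, so neighbouring matches merge into one run of capitals. The motifs were chosen after expression values had been seen. NDUFB11 lies at chrX:47144653-47144952 on the minus strand, with ATGGCGG beginning at 24, counted from the gene start as 1. COX6A1 lies at chr12:120437863-120438162 on the plus strand, with matches to the NRF1 letters beginning at -219, -218 and -173, to the ETS letters, read on the other strand, at -16 and to ATGGCGG at 15 relative to the start.
NDUFB11: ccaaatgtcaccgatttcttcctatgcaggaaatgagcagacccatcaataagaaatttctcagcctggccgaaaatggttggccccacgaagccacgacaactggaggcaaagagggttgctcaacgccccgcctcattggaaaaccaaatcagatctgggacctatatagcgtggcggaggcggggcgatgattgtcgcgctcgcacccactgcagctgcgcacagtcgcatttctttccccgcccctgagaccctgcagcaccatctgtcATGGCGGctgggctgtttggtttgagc
COX6A1: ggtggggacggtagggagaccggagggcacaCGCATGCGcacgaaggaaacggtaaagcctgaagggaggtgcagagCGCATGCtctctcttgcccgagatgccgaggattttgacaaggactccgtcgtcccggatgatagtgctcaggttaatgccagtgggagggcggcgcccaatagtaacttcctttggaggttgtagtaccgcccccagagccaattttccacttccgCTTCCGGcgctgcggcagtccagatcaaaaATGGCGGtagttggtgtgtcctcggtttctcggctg
The NDUFB11 window held no match to the NRF1 or ETS letters.

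Of the 78 members, 63 were in the promoter table. ATGGCGG was found in 17 of these 63 (27.0%) and in 6.66% of all 27305 genes of the table. CCGGAAG was found in 17 members (27.0%) and in 12.2% of all genes, and GCATGCG in 13 members (20.6%) and 4.74% of all genes. At least 1 of the 3 motifs was present in 33 members. The median difference in log2 signal between the siRNA groups was 0.11 with ATGGCGG (17 members) and 0.06 without it (43 members), 0.07 and 0.06 for CCGGAAG (17 and 43 members), and 0.07 and 0.06 for GCATGCG (13 and 47 members). No test was made of these shares or medians, and a match is a run of letters, not a measured binding site. ATGGCGG begins with ATG, and in NDUFB11 and COX6A1 it lay after the gene start, at 24 and 15. Whether such matches are start codons of the coding sequence was not tested.

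The targeted gene was examined first. The cluster annotated with both MATR3 and its neighbour SNHG4 had log2 signals of 11.21, 10.53 and 10.52 with MATR3 siRNA against 12.25, 11.75 and 11.68 with control siRNA. The groups did not overlap, and the difference was -1.14 ± 0.09 log2 units (SD, n = 3 pairs), which left 45.4% of the control signal. The exact permutation p was 0.1 (two-sided), and no lower value can be reached with 3 samples per group, while limma over 33782 clusters gave an adjusted p of 1 with no block, 0.270 with the replicate block and 0.0547 with replicate 1 of both groups set against replicates 2 and 3. Across arrays, medians over all clusters lay between 4.80 and 5.16. Replicate 1 differed from the rest in both groups: its arrays correlated at 0.9955 with each other and at 0.981 to 0.986 with the other 4, which correlated at 0.990 to 0.995 among themselves (all across clusters, which are not independent). The labels name no batch. Of 9 measured SH-SY5Y markers, 8 were above the brightest of 23 background probe sets (a mean of 6.93), TH being the exception at 4.76. Of 9 measured markers of other cells or states, PDGFRB alone was above it, and the mean log2 signal of those 9 was 5.11 to 5.36 after MATR3 siRNA and 4.94 to 5.26 after control siRNA.

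Clusters with a mean log2 signal under 4.945, the median over the whole array, were filtered out, which left 74 members. COX6A2, COX7A1, COX7B2 and COX8C were below it. The kept members ranged widely in signal, and 67 were above the background probe sets in both groups while 7 (NDUFS7, NDUFB4, UQCR11, UQCRB, COX4I2, COX6C and COXFA4L2) were below them in both. In 66 of the 74 members (89.2%), replicate 1 of both groups was above all 4 other samples, as it was in 85.4% of all 15209 clusters tested. Across members the median gap of replicate 1 over replicates 2 and 3 was 0.69 log2 units, larger than any difference between the siRNA groups.

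Few oxidative phosphorylation genes passed a test after MATR3 siRNA, and only NDUFB11 and COX6A1 did so in a planned model with a block. With no block, limma (two-sided, Benjamini-Hochberg adjusted over 15209 clusters) called 0 members, 0 of them also at an unadjusted p under 0.05, where 0% of all clusters were called and 0.631% had such an unadjusted p. A model with a term for replicate number also called 0 members (0.0526% of all clusters). There 17 of the 74 members had an unadjusted p under 0.05 in limma, beside 3105 of the 15209 clusters. With replicate 1 against replicates 2 and 3 as a block limma called 2 members, NDUFB11 and COX6A1, both higher after MATR3 siRNA, while 72 were not called. That is 2.70% of the members, beside 3.48% of all clusters (2.08% higher and 1.41% lower). At an unadjusted p under 0.05 there were 20 members in this model, beside 23.8% of all clusters. Both counts were close to the background share, so the count of calls says nothing particular about these genes. In the alternatives to that model, 1 member was called after quantile normalization (NDUFB11, beside 2.53% of all clusters), 0 after median centring (1.35%) and 0 without the filter (0.521%). A model with array weights and no block called 8 members, beside 11.6% of all clusters. Of these, 7 were higher (8.28% of all clusters) and UQCRC2 was lower (3.3%).

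Most members lay slightly above 0. The median difference, MATR3 siRNA minus control siRNA, was 0.07 log2 units over the 74 members and 0.04 over all clusters, and 60 members (81.1%) were above 0, beside 61.0% of all clusters. The median over members was 0.10, 0.07 and 0.11 in the 3 pairs of equal replicate number, against 0.02, 0.04 and 0.05 over all clusters. In 29 members (39.2%) all 3 pairs were higher and in 7 (9.46%) all 3 were lower, beside 26.9% and 14.4% of all clusters. Differences ran from -0.26 for UQCRC2 to 0.49 for NDUFB11, and 16 members (21.6%) exceeded 0.2 in size, beside 20.6% of all clusters. The direction depended on scaling: quantile normalization moved the median of all clusters from 0.04 to -0.01 and the members' median to 0.03, with 51 members above 0, and centring each array on its median moved them to -0.04 and -0.01, with 35 above 0. Members thus sat 0.03 above the median of all clusters under each of these scalings. Centring shifts all clusters of an array by the same amount, so it cannot change this gap. Without the filter the gap was 0.01, with medians of 0.07 over the 78 members and 0.06 over all clusters. The SD of the members' 3 pair medians was 0.02, and no test was made of the gap.

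**Figure D1:**
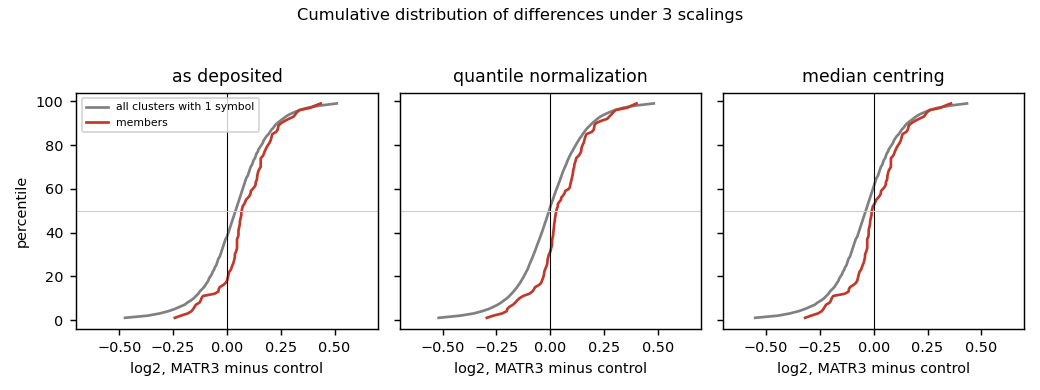
Cumulative distribution of the difference in log2 signal (x axis, MATR3 siRNA minus control siRNA) against percentile (y axis) for the 74 kept members (red) and all 15209 clusters with 1 symbol (grey), for the values as deposited, after quantile normalization and after median centring. The red curve crosses the middle at 0.07, 0.03 and -0.01 in the 3 panels, to the right of the grey curve at 0.04, -0.01 and -0.04, and the curves meet at the high end.

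Complex I, the NADH dehydrogenase, had a median difference of 0.07, with 25 of 32 genes above 0. The counts above 0 by complex are of deposited values and stand beside 61.0% of all clusters. All 5 core genes were above 0 as deposited (median 0.11), and none passed a test. NDUFV1 was below 0 after quantile normalization (-0.01) and after median centring (-0.04), and NDUFS7 after median centring (-0.02). NDUFV2 and NDUFS1, which carry iron-sulphur clusters, differed by 0.16 ± 0.14 and 0.11 ± 0.03 (SD, n = 3 pairs). NDUFS3, a core subunit of the matrix arm, differed by 0.13 ± 0.09. NDUFS7, another iron-sulphur subunit, and NDUFV1, which binds NADH and flavin, differed by 0.05 ± 0.07 and 0.03 ± 0.20. In all 5 the groups overlapped and replicate 1 was the highest sample of each group.

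Among the 27 accessory subunits, 20 were above 0 and 6 below. NDUFB11, a subunit of the membrane arm, had log2 signals of 11.58, 11.30 and 11.46 with MATR3 siRNA against 11.14, 10.88 and 10.86 with control siRNA. Every MATR3 siRNA sample was above every control sample. NDUFB11 was higher by 0.49 ± 0.10 (SD, n = 3 pairs; 0.44 in replicate 1, 0.42 and 0.60 in the others), a ratio of 1.40 in signal. Its adjusted p in limma was 0.0260 with replicate 1 against replicates 2 and 3 as a block, 0.0674 with the replicate block and 1 with no block, and the exact permutation p was 0.1. The call did not outlast the loss of any 1 sample: adjusted p was 0.0549 to 0.142 in the same model, with differences between 0.43 and 0.53. It was lost too without the filter (0.0572) and after median centring (0.0770), and held after quantile normalization (0.0348). Over all 33782 kept clusters, the set used for MATR3, NDUFB11 had an adjusted p of 0.111 in that model. MATR3 had 0.0547 there.

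NDUFB5, also of the membrane arm, had 9.69, 9.09 and 8.81 with MATR3 siRNA against 9.41, 8.45 and 8.48 with control siRNA, a difference of 0.42 ± 0.20. It was higher in all 3 pairs, though the groups overlapped through the replicate 1 control, and its adjusted p was 0.0662 with the same block. NDUFB3 and NDUFC1, small membrane-arm subunits, differed by 0.31 ± 0.38 and 0.26 ± 0.10. These were the next largest differences of the complex, and the spread of NDUFB3 between pairs exceeded its mean. In complex I, array weights called NDUFB11, NDUFB5, NDUFB3 and NDUFA1, in a model that called 11.6% of all clusters.

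At the other end, NDUFS4, an accessory subunit of the matrix arm in which mutations cause Leigh syndrome, had 8.39, 7.54 and 7.49 with MATR3 siRNA against 8.48, 7.88 and 7.62 with control siRNA. It was lower in all 3 pairs, by -0.19 ± 0.13, with overlapping groups and an adjusted p of 0.242. NDUFA8, on the intermembrane-space side, had 8.98, 7.70 and 7.87 against 8.94, 7.93 and 8.12, a difference of -0.15 ± 0.16 with pairs of both signs. NDUFS5 was lower in all 3 pairs as well, by -0.12 ± 0.12. NDUFB2 had the widest spread of the complex, 0.04 ± 0.51, with pairs of both signs. Of the accessory genes not described so far, NDUFA5, NDUFA6 and NDUFA3 were higher in all 3 pairs, by 0.20 ± 0.15, 0.17 ± 0.09 and 0.17 ± 0.06. The remaining 16 had pairs of both signs or pairs at 0, and their differences ran from -0.04 for NDUFB9 and NDUFV3 to 0.16 for NDUFA1 and NDUFA2.

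All 3 measured genes of complex II, the succinate dehydrogenase, were above 0 as deposited and none passed a test. After median centring SDHD was at -0.003. SDHC, 1 of the membrane anchors, had 12.06, 11.11 and 11.27 with MATR3 siRNA against 11.88, 10.94 and 10.91 with control siRNA, a difference of 0.24 ± 0.11 with an adjusted p of 0.0979. SDHD, the other anchor, differed by 0.07 ± 0.10, and SDHA, the flavoprotein that oxidises succinate, by 0.08 ± 0.04. The groups overlapped in each.

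Complex III had the highest median of the 5 complexes, 0.14, with 7 of 8 genes above 0. None was called with no block, the replicate block or the block of replicate 1, and array weights called UQCRC2. UQCRB, a small subunit near the ubiquinone site, differed by 0.24 ± 0.11, though its signal was below the background probe sets. UQCRC1 and UQCRC2, the core proteins of the complex, had means of opposite sign. UQCRC1 had 11.03, 10.18 and 10.27 with MATR3 siRNA against 10.83, 9.99 and 10.03 with control siRNA, a difference of 0.21 ± 0.03 with an adjusted p of 0.0879. UQCRC2 had 13.27, 12.19 and 12.23 against 13.40, 12.63 and 12.43, a difference of -0.26 ± 0.16 with an adjusted p of 0.125. Both kept their sign in all 3 pairs, and the groups overlapped in both. UQCRQ, another small subunit, and UQCRHL, a near-identical copy of the hinge protein gene UQCRH, differed by 0.01 ± 0.19 and 0.06 ± 0.22. The small subunits UQCR10 and UQCR11 and CYC1, which carries the haem of cytochrome c1, were higher in all 3 pairs, by 0.19 ± 0.13, 0.12 ± 0.12 and 0.16 ± 0.14. The values of UQCRHL are uncertain because its probes may also bind UQCRH transcripts.

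In complex IV, the cytochrome c oxidase, the median was 0.05, with 10 of the 13 kept genes above 0. COX6A1, the subunit VIa isoform of most tissues, had 15.04, 15.19 and 15.09 with MATR3 siRNA against 14.78, 14.81 and 14.77 with control siRNA. The groups did not overlap, and the control samples lay within 0.04 of each other. COX6A1 was higher by 0.32 ± 0.06 (SD, n = 3 pairs; 0.26 in replicate 1, 0.38 and 0.32 in the others), a ratio of 1.25 in signal. It had an adjusted p of 0.0451 with replicate 1 against replicates 2 and 3 as a block, 0.0977 with the replicate block and 1 with no block (limma), and an exact permutation p of 0.1. With any 1 sample left out in that model the adjusted p was 0.0865 to 0.199, without the filter 0.102, after median centring 0.195 and after quantile normalization 0.0538. Over all 33782 kept clusters COX6A1 was not called in that model either. COX6A1P2, a processed pseudogene whose cluster was measured separately, had a difference of 0.18 ± 0.13, also higher in all 3 pairs, and transcripts of the copies may share probes.

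COX8A, a small subunit, had 15.79, 16.02 and 16.17 with MATR3 siRNA against 15.56, 15.97 and 15.60 with control siRNA, a difference of 0.28 ± 0.26. Unlike in most members, replicate 1 was the lowest sample of each group. COX7B, another small subunit, differed by -0.11 ± 0.09 and was lower in all 3 pairs. COX5B, COX7A2L and COX4I1 were higher in all 3 pairs, by 0.18 ± 0.08, 0.06 ± 0.02 and 0.05 ± 0.03. The last is the common isoform of subunit IV. COX5A (0.05 ± 0.09), COX7A2 (0.05 ± 0.10), COXFA4 (0.01 ± 0.15), COX6C (0.00 ± 0.13) and COX6B1 (-0.01 ± 0.27) had pairs of both signs.

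The isoform genes of complex IV with restricted expression were dim throughout. COX4I2, the lung isoform of subunit IV, had 5.70, 5.04 and 5.07 with MATR3 siRNA against 6.04, 5.26 and 5.22 with control siRNA, a difference of -0.24 ± 0.10. It was lower in all 3 pairs, with an adjusted p of 0.0812, but lay below the background probe sets in both groups. COXFA4L2 differed by 0.06 ± 0.19, also below background. The 4 members under the filter were COX6A2 and COX7A1, isoforms of heart and skeletal muscle (-0.06 ± 0.10 and -0.04 ± 0.13), and COX7B2 and COX8C, known from testis (0.02 ± 0.08 and 0.29 ± 0.51). All 4 were below background, so no difference in expression can be read from them.

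Complex V, the ATP synthase, had a median of 0.11, with 15 of 18 genes above 0. None was called with no block, the replicate block or the block of replicate 1, and array weights called ATP5MC3 and ATP5MGL. ATP5F1B, the catalytic beta subunit, had 16.13, 16.10 and 16.11 with MATR3 siRNA against 15.97, 16.02 and 15.92 with control siRNA. Its groups did not overlap, as in 3 of the 74 members (4.05%, all higher), beside 1.58% of all clusters higher and 0.658% lower. The difference was 0.14 ± 0.06 with an adjusted p of 0.176, and the other members without overlap were NDUFB11 and COX6A1.

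The largest difference of complex V was that of ATP5MGL, a copy of the membrane subunit gene ATP5MG, with 7.75, 7.26 and 7.13 with MATR3 siRNA against 7.60, 6.83 and 6.51 with control siRNA. The difference was 0.40 ± 0.24 with overlapping groups and an adjusted p of 0.124, while ATP5MG itself differed by 0.03 ± 0.12, and the 2 copies may share probes. ATP5F1D, the delta subunit of the F1 part, had 11.29, 10.26 and 10.64 against 10.76, 10.35 and 10.08, a difference of 0.33 ± 0.37 that was below 0 in replicate pair 2. ATP5IF1, the inhibitor that blocks ATP hydrolysis by the complex, differed by 0.21 ± 0.21 with pairs of both signs. ATP5MC1, a gene for the membrane c ring, had 9.55, 9.28 and 9.27 against 9.74, 9.54 and 9.31, a difference of -0.16 ± 0.11 and lower in all 3 pairs. ATP5F1C, the central gamma subunit, had 14.42, 13.95 and 14.33 against 14.48, 14.40 and 14.28, a difference of -0.15 ± 0.26 that rested on replicate pair 2.

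Several ATP synthase genes had small differences, and some of these repeated closely between pairs. Differences this small depend on scaling, since centring each array moved the median of all clusters from 0.04 to -0.04. ATP5MC2, another gene for the c ring, had 7.75, 7.33 and 7.34 with MATR3 siRNA against 7.61, 7.18 and 7.19 with control siRNA. The groups overlapped through replicate 1, but the difference was 0.15 ± 0.01 over the 3 pairs. ATP5PO, of the peripheral stalk, differed by 0.09 ± 0.02, and ATP5MJ, ATP5MF and ATP5ME, small membrane subunits, by 0.13 ± 0.04, 0.14 ± 0.06 and 0.20 ± 0.11, each higher in all 3 pairs. ATP5F1A, the alpha subunit, was higher in all 3 pairs by 0.07 ± 0.07, and ATP5PD, of the peripheral stalk, was lower in all 3 by -0.12 ± 0.18. ATP5MC3, the remaining c ring gene, differed by 0.23 ± 0.28 with pairs of both signs, as did ATP5PB, ATP5PF and ATP5F1E at 0.05 ± 0.09, 0.05 ± 0.13 and 0.04 ± 0.10. None of these passed the main model with no block, the replicate block or the block of replicate 1, while array weights called ATP5MC3.

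**Figure D2:**
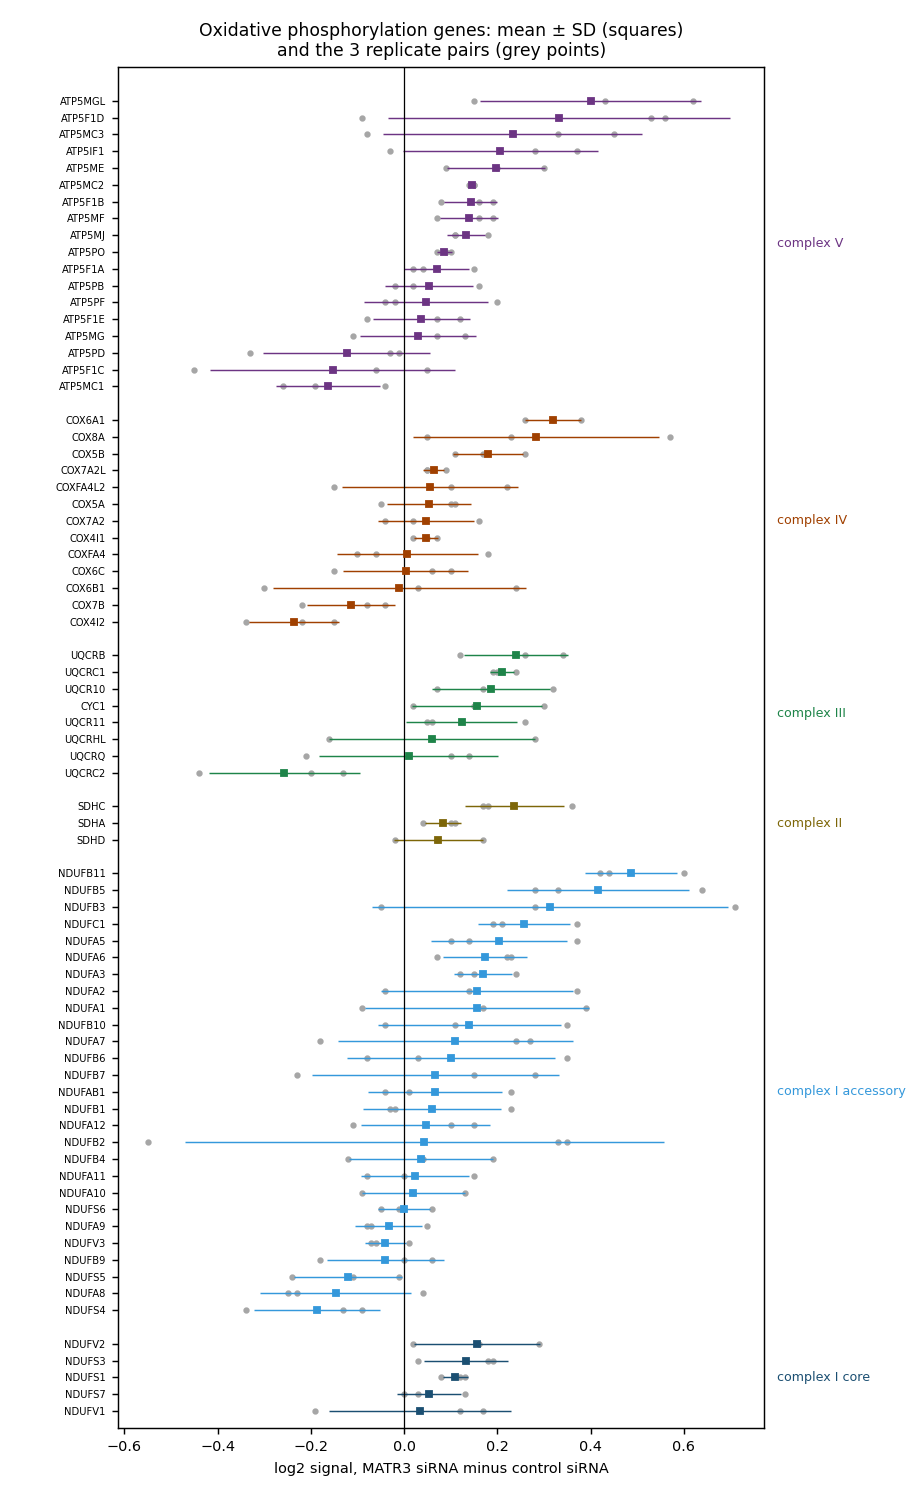
Difference in log2 signal (x axis, MATR3 siRNA minus control siRNA) of the 74 kept members (y axis), grouped by complex, with the mean (square), the SD of the 3 pair differences (line) and each pair (grey point). NDUFB11 is highest at 0.49 and UQCRC2 lowest at -0.26, and most means lie between 0 and 0.2.

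**Figure D3:**
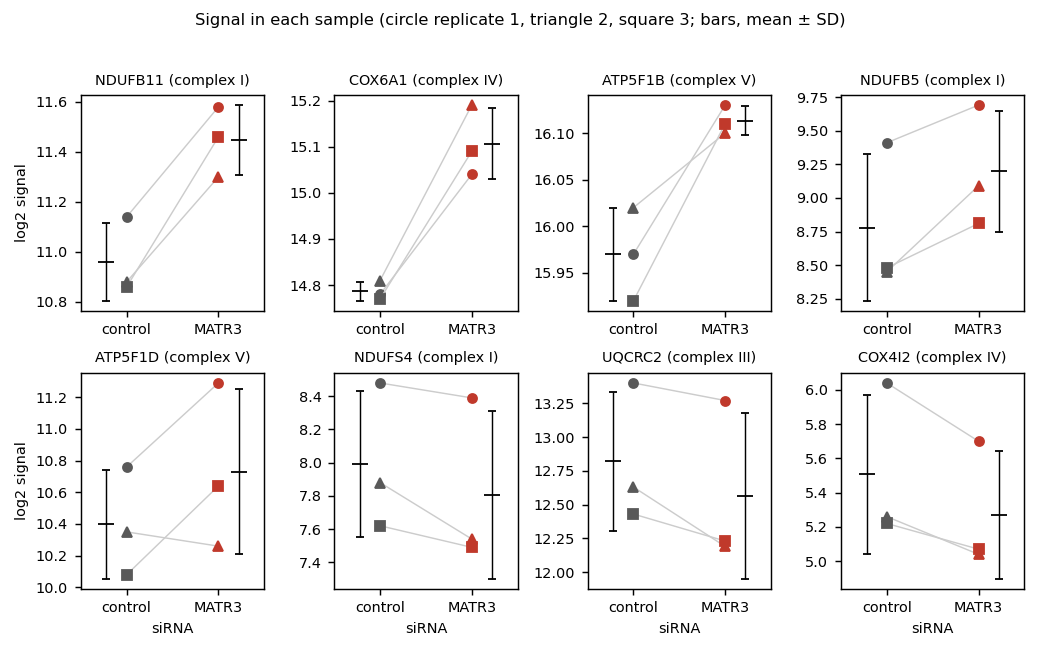
Log2 signal (y axis) of 8 members in each control siRNA and MATR3 siRNA sample (x axis), with grey lines joining equal replicate numbers, circles for replicate 1, triangles for 2 and squares for 3, and bars for the mean ± SD of each group. The y axes do not start at 0 and differ between panels. The groups are separate for NDUFB11, COX6A1 and ATP5F1B and overlap in the other 5.

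The exon-level values of the same arrays, to which the series' title points with its mention of splicing, were read for 76 members, with 1130 kept probe sets (705 exon and 425 junction, a median of 12 per gene). None was called in limma with no block, with the replicate block or with replicate 1 against replicates 2 and 3 as a block, where 0% of 370991 probe sets were called in each. The smallest adjusted p of a member probe set was 0.372, in the last of these models. There 125 member probe sets (11.1%) had an unadjusted p under 0.05, beside 12.1% of all probe sets. The splicing index, the log2 signal of a probe set minus the mean of its gene's kept probe sets in the same sample, was tested for 1107 probe sets of 67 members. None was called in these models either (smallest adjusted p 0.536), where 0%, 0.000277% and 0% of all were called. In the last model 82 (7.41%) had an unadjusted p under 0.05, beside 9.28% of all 360570. Exon and gene levels mostly pointed the same way: in 60 of the 69 members with at least 3 exon probe sets, the median of those probe sets had the sign of the gene-level difference. Both levels summarise the same hybridisations, so this is no independent check.

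The probe sets with the lowest unadjusted p are given as values, since none passed. A junction probe set of NDUFC1 had 7.25, 6.40 and 6.54 with MATR3 siRNA against 6.29, 4.94 and 5.23 with control siRNA, a difference of 1.24 ± 0.26 with overlap absent by a narrow margin. An exon probe set of NDUFB5 had 11.67, 11.57 and 11.76 against 10.94, 10.53 and 10.40, a difference of 1.04 ± 0.32 and clearly apart, and 24 of the gene's 28 probe sets were above 0. NDUFS4 had a junction probe set at 6.65, 6.95 and 7.03 against 5.62, 6.22 and 5.77, higher by 1.01 ± 0.27, while only 4 of its 15 probe sets were above 0. Its probe sets ran from -2.09 to 1.13, and the splicing index of that junction was higher by 1.32. For SDHA, a junction probe set had 8.20, 7.36 and 8.08 against 9.10, 8.63 and 9.07, a difference of -1.05 ± 0.19 without overlap, and its splicing index differed by -1.13. An exon probe set of ATP5F1A had 8.11, 7.51 and 6.88 against 7.33, 5.66 and 5.48, with overlapping groups and a splicing index higher by 1.35. The adjusted p was 0.372 to 0.381 at the probe set level for these 5. With control siRNA, the NDUFC1 and NDUFS4 junctions had means under the exon-level filter of 5.995. They therefore passed the filter only through the MATR3 siRNA samples, where they were high, and their differences are the least certain here.

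For NDUFB11, all 5 exon probe sets were above 0 (0.23 to 0.78), whereas 1 of 5 junction probe sets was (-1.33 to 0.22). MATR3 siRNA replicate 2 was the lowest sample in the 2 lowest junctions, at 11.94 and 9.85, where no control sample was below 12.25. For COX6A1, 3 of 4 exon probe sets were above 0 (-0.18 to 0.73), and the 2 junction probe sets differed by 0.32 ± 0.21 and -0.04 ± 0.61. For UQCRC2, 6 of 31 probe sets were above 0, with a median of -0.35. The exon probe sets of NDUFB11 and the probe sets of UQCRC2 thus leaned the way of the gene-level value, and the junctions of NDUFB11 did not.

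**Figure D4:**
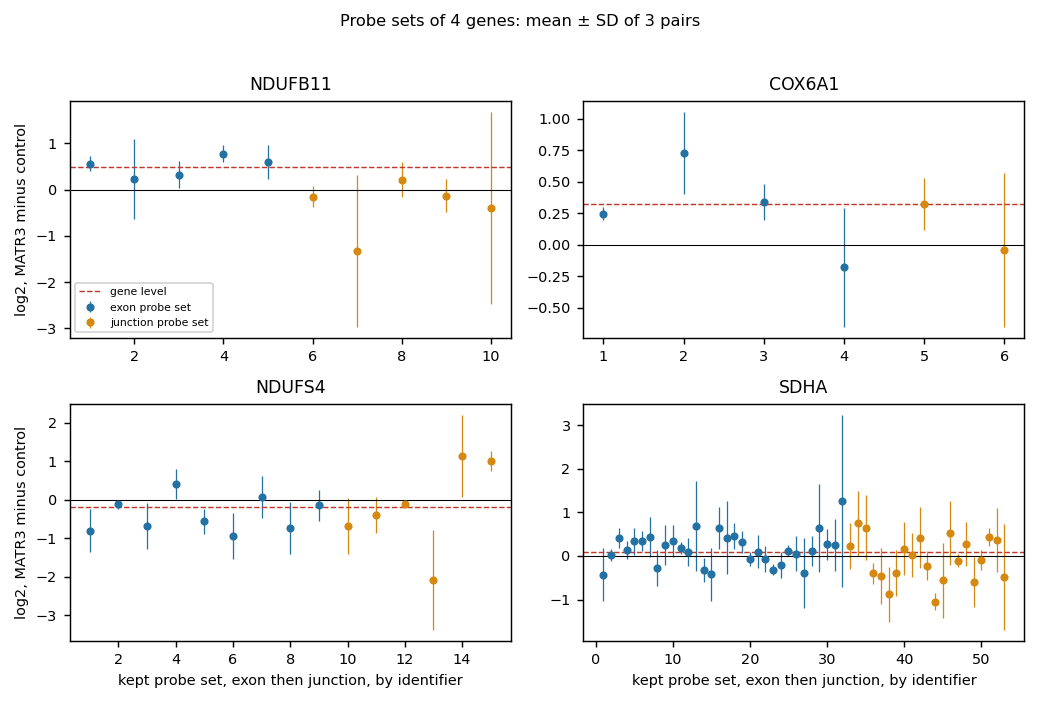
Difference in log2 signal (y axis, MATR3 siRNA minus control siRNA, mean ± SD of 3 pairs) of each kept probe set (x axis, exon probe sets in blue and then junction probe sets in orange, in the order of their identifiers) for NDUFB11, COX6A1, NDUFS4 and SDHA, with the gene-level difference as a dashed line. The 5 exon probe sets of NDUFB11 lie between 0.23 and 0.78, and the 15 exon and junction probe sets of NDUFS4 spread from -2.09 to 1.13.

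Genes around the pathway were read from lists in the same model with replicate 1 against replicates 2 and 3 as a block. Of 50 assembly factors 47 were measured, with a median difference of 0.01 and 27 above 0. COX18, which helps insert a complex IV subunit into the membrane, rose by 0.30 ± 0.06 (adjusted p = 0.0419, limma), and ACAD9, an assembly factor of complex I, fell by 0.35 ± 0.02 (adjusted p = 0.0301, limma). The groups overlapped in both, and each kept its sign in all 3 pairs. The other 45 were not called. Of 24 citrate cycle and pyruvate dehydrogenase genes 21 were measured, with a median of 0.07. PDK1, the kinase that switches pyruvate dehydrogenase off, had 8.24, 7.65 and 7.86 with MATR3 siRNA against 8.96, 8.21 and 8.56 with control siRNA and fell by 0.66 ± 0.09 (adjusted p = 0.0408, limma). Its groups overlapped as well, with all 3 pairs lower, and the other 20 genes were not called. None of the 16 kept regulators of mitochondrial gene expression was called. The brightest of them were TFB2M, a mitochondrial transcription factor (0.23 ± 0.10), and the transcription factor YY1 (0.01 ± 0.12). The shares called, 2 of 47, 1 of 21 and 0 of 16, stand beside 3.48% of all clusters, and with no block or the replicate block none of these genes was called. With 1 sample left out in the replicate 1 block model, 0 clusters were called, apart from 21 without MATR3 siRNA replicate 2. Beside these values, 2 of the 8 kept SH-SY5Y markers rose in that model (ISL1 and STMN2) and 1 fell (DBH), and LUM rose among the 4 kept markers of other cells, at a mean of 6.23, below background. The part of these markers in the results was not tested.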

How the data were processed

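The deposited values are log2 signals that, per the submitters' processing notes, the authors made with Affymetrix Expression Console and RMA; versions, annotation release and genome build are not given in the sources used here. The gene-level and exon-level tables summarise the same 6 hybridisations and were analysed apart. Arrays have no count depth, so their number limits the precision, and nothing was rescaled before the main tests.

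A single gene symbol was given to 23781 of 67528 transcript clusters and to 672085 of 913055 probe sets; 1543 clusters had more than 1 symbol and 42204 were unnamed. Names came from GEO's platform annotation, updated through RefSeq (GRCh38.p14). Features with 1 symbol and a mean at or above the median of all (4.945 for clusters, 5.995 for probe sets) were kept, 15209 clusters and 370991 probe sets. The splicing index needed 5 kept probe sets per gene.

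Models (lmFit and eBayes, two-sided, 3 against 3) were fitted with limma 3.58.1 (R 4.3.3, files read with the data.table package, version 1.17.8), with Benjamini-Hochberg adjustment over all kept features and a threshold of 0.05. The main model had no block. Python 3.11.15 with pandas 2.3.3, numpy 2.4.6 and matplotlib 3.10.9 made the summaries and figures, and the models were tested on simulated data. Both groups carry replicate numbers 1 to 3 in the labels. Deviations from group means correlated at 0.752, 0.426 and 0.613 between samples of equal number, all over 0.1, which was read as pairing. Each difference is therefore the mean ± SD over the 3 pairs. Replicate 1 stood apart in both groups, which can raise these correlations without pairing of replicates 2 and 3. Deviations of samples of unequal number were not compared, so that pairing was not shown. The SDs and the counts of pairs rest on it, while the mean differences do not. Alternatives were the replicate number or the split of replicate 1 from replicates 2 and 3 as a block, other filters and scalings, array weights, all kept clusters, and each sample left out.

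The members, gene lists and models were chosen with earlier results of these data known. Named members were those called in the main model with no block, the replicate block or the replicate 1 split. The 2 highest and 2 lowest of each complex (all of complex II), the isoform genes and ATP5IF1 were named too. From each neighbouring list up to 4 called genes, or else the 2 brightest, were named. At exon level the 3 probe sets with the lowest p were named for signal and for splicing index. All other members described, COX6A1P2 and the probe sets of NDUFB11, COX6A1 and UQCRC2 were added after their values were seen.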

Additional observations from a re-analysis of the deposited data

How the results depend on the processing

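With no block, 0 clusters and 0 members were called, and filters, scalings and single-sample omissions with no block left both at 0. The replicate block called 8 clusters and 0 members. The block of replicate 1 against replicates 2 and 3 called 530 clusters and 2 members, 385 and 1 after quantile normalization, 205 and 0 after median centring, 124 and 0 without a filter, and 1 and 0 over all kept clusters; the runs without a filter and over all kept clusters with a block were added after seeing the data. After quantile normalization 170 of the 385 were higher, and after centring 58 of the 205, beside 316 of the 530. Array weights called 1761 clusters and 8 members (NDUFB3, ATP5MC3, NDUFB5, NDUFA1, NDUFB11, COX6A1 and ATP5MGL higher, UQCRC2 lower), beside 11.6% of all clusters; the estimate of the weights stopped before it converged. The cause of these differences between models was not tested. With 1 sample left out, calls ran from 0 to 21 clusters and were 0 for members. MATR3 differed by -1.20 with array weights (adjusted p 0.00131) and by -1.22 after centring with the replicate 1 block (adjusted p 0.0377), by -1.37 to -0.96 with 1 sample left out and no block, and by -1.19 to -1.11 with the replicate 1 block. The members' median was 0.0937 with array weights, 0.0283 after quantile normalization and -0.0083 after centring, with or without the block. It ran from -0.14 (without MATR3 siRNA replicate 1) to 0.29 (without control siRNA replicate 1) with no block, where the median of all clusters moved from -0.16 to 0.25, and from 0.08 to 0.0971 with the replicate 1 block (0.0925 without either replicate 1, 0.0957 without MATR3 siRNA replicate 2). Of the 26 named members with values, the sign turned in 2 after quantile normalization, in 6 after centring, in 18 with some sample left out and no block, and in 4 with some sample left out and the replicate 1 block. At exon level no alternative called a member probe set. Over all genes, the splicing index called 411 probe sets without MATR3 siRNA replicate 1. With the replicate block and no sample left out it called 1. The 7 kept members below the background probe sets have the least certain values.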

Other observations

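Several genes of the pathway were measured only by transcript clusters that the annotation gives to more than 1 gene, and they are listed here as values. There were 8 such clusters, 6 of them above 0, with a median difference in log2 signal of 0.04 and a range from 0.00 to 0.21. The cluster of NDUFS8, an iron-sulphur subunit of complex I, and MIR4691 had 9.22, 8.24 and 8.71 with MATR3 siRNA against 8.79, 8.43 and 8.31 with control siRNA, a difference of 0.21 ± 0.35 (SD, n = 3 pairs) with pairs of both signs. The cluster of UQCRH, the hinge protein of complex III, and UQCRHL differed by 0.10 ± 0.10 and was higher in all 3 pairs. The groups overlapped in both. The 7 that passed the filter were tested, and none was called in limma over 33782 clusters with replicate 1 against replicates 2 and 3 as a block.

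Pseudogenes and neighbouring transcripts left out by the rule were measured as well. Of 6 pseudogenes, SDHAP4 differed by 0.21 ± 0.14, COX6A1P2 by 0.18 ± 0.13 and ATP5MC1P5 by 0.18 ± 0.05, each higher in all 3 pairs and with overlapping groups. SDHAP3 and ATP5F1EP2 differed by 0.01 ± 0.13 and -0.01 ± 0.23. None of these was called with the same block. NDUFA6-DT, a transcript divergent from NDUFA6, differed by 0.13 ± 0.08.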
